A study of Mus musculus with 3 samples.

Results

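Genes of laminins, integrins and their partners at the basement membrane were followed in the midbrain of newborn mice. The members were all genes whose symbol names a numbered laminin chain (Lama, Lamb or Lamc), a numbered integrin subunit (Itga or Itgb), a nidogen (Nid1, Nid2), agrin (Agrn), perlecan (Hspg2) or dystroglycan (Dag1). The rule found 36 of the 49585 genes listed, and all 36 were among the 25561 genes with enough counts to be tested. They comprised 11 laminin chains, 2 nidogens, 2 heparan sulphate proteoglycans, 20 integrin subunits and Dag1. Integrin alpha subunits named by a letter, such as Itgav and Itgam, fall outside the rule and are given with the pathway genes.

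Total RNA from frozen mid-brain was sequenced in 2 libraries of genotype FGR and 1 library of wild-type (WT) genotype. All 3 came from C57BL/6 mice on postnatal day 3. The labels use the abbreviation FGR without expanding it and give no allele, treatment, sex, litter or pooling for either group. The comparison of FGR with WT is the one the design implies.

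The deposited counts summed to 58444481 and 46240262 in FGR replicates 1 and 2, against 52874311 in WT. The members took 63178 and 52010 of these in FGR and 68086 in WT. The spread among WT samples is unknown, because WT has 1 library, so genotype cannot be told apart from dissection, litter or preparation of that library. The midbrain gene En2 stood at 40.1 and 37.4 CPM (counts scaled to library size) in FGR and 20.9 CPM in WT. The ventral forebrain genes Nkx2-1 (0.0689 and 0.0437 CPM) and Dlx1 (0.155 and 0.0875 CPM) were near 0 in FGR, against 4.88 and 7.76 CPM in WT. The part of this regional difference in the results below was not tested.

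Basement membranes are thin sheets of matrix beneath epithelia and around blood vessels, and in brain they also lie under the pia, where the end feet of radial glia and astrocytes attach. Laminins assemble from an alpha, a beta and a gamma chain and polymerise on the cell surface. Nidogens, perlecan and agrin tie the laminin network to collagen IV and to receptors. Cells hold on to it through dystroglycan and through integrins, each a pair of an alpha and a beta subunit, and losses of laminin chains, beta1 integrin or dystroglycan function in mice disturb the pial surface and neuronal migration.

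In FGR midbrain, 8 of the 36 members were lower than in WT at an adjusted p under 0.05 in edgeR's quasi-likelihood test with Benjamini-Hochberg adjustment over all genes. These were the laminin chains Lama3, Lama4, Lamb1 and Lamc3, the nidogen Nid2, the perlecan gene Hspg2, the integrin alpha subunit Itga1 and the integrin beta subunit Itgb5. The calls made up 22.2% of the members, beside 4.25% of all genes tested, of which 2.59% of genes were lower and 1.66% higher in FGR. In this test 0 members were called higher, and at an unadjusted p under 0.05 edgeR had 18 members lower and 0 higher. The same unadjusted threshold gave 10 lower and 0 higher in DESeq2, and 17 lower and 0 higher in limma-voom. The share of all genes at this unadjusted threshold was not taken, so such counts, here and below, have no background beside them.

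The lower levels reached beyond the called genes. Both FGR libraries lay below WT for 30 of the 36 members, or 83.3%, beside 38.2% of all genes tested. Both lay above WT for Itga5 and Itgb8, and on either side of it for Nid1, Itga2b and Itgb3. The median log2 fold change of the members was -0.36, beside 0.01 over all genes, and the most negative value was -1.05, for Lamb3. The FGR libraries were not equally low: the median log2 ratio to WT was -0.49 in replicate 1 and -0.26 in replicate 2. Replicate 1 was the lower of the pair for 30 of 36 members, beside 12983 of 25561 genes.

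The 8 calls held in edgeR with library totals, with DESeq2's size factors, with no filter and in its robust form, and in limma-voom, but not in DESeq2 or under a stricter filter. DESeq2 called 4 of them, Lama4 (adjusted p = 0.0193), Nid2 (0.0111), Itgb5 (0.0269) and Hspg2 (0.0301), and left out Lama3, Lamb1, Lamc3 and Itga1. When genes with a mean below 1 CPM were left out, 33 members were fitted and 0 were called by edgeR. Over all genes, 301 of 18670 were called under this stricter filter, and 357 of the 25561 fitted in DESeq2. DESeq2 gave no adjusted p for some genes with few counts. Among the members these were Itga2, Itga11, Itgb2, Itgb6, Itgb7 and Lamb3, which it could not call. The adjusted p-values of the 8 lay between 0.0561 and 0.131 under the stricter filter, although 18 members lay lower at an unadjusted p under 0.05.

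**Figure D1:**
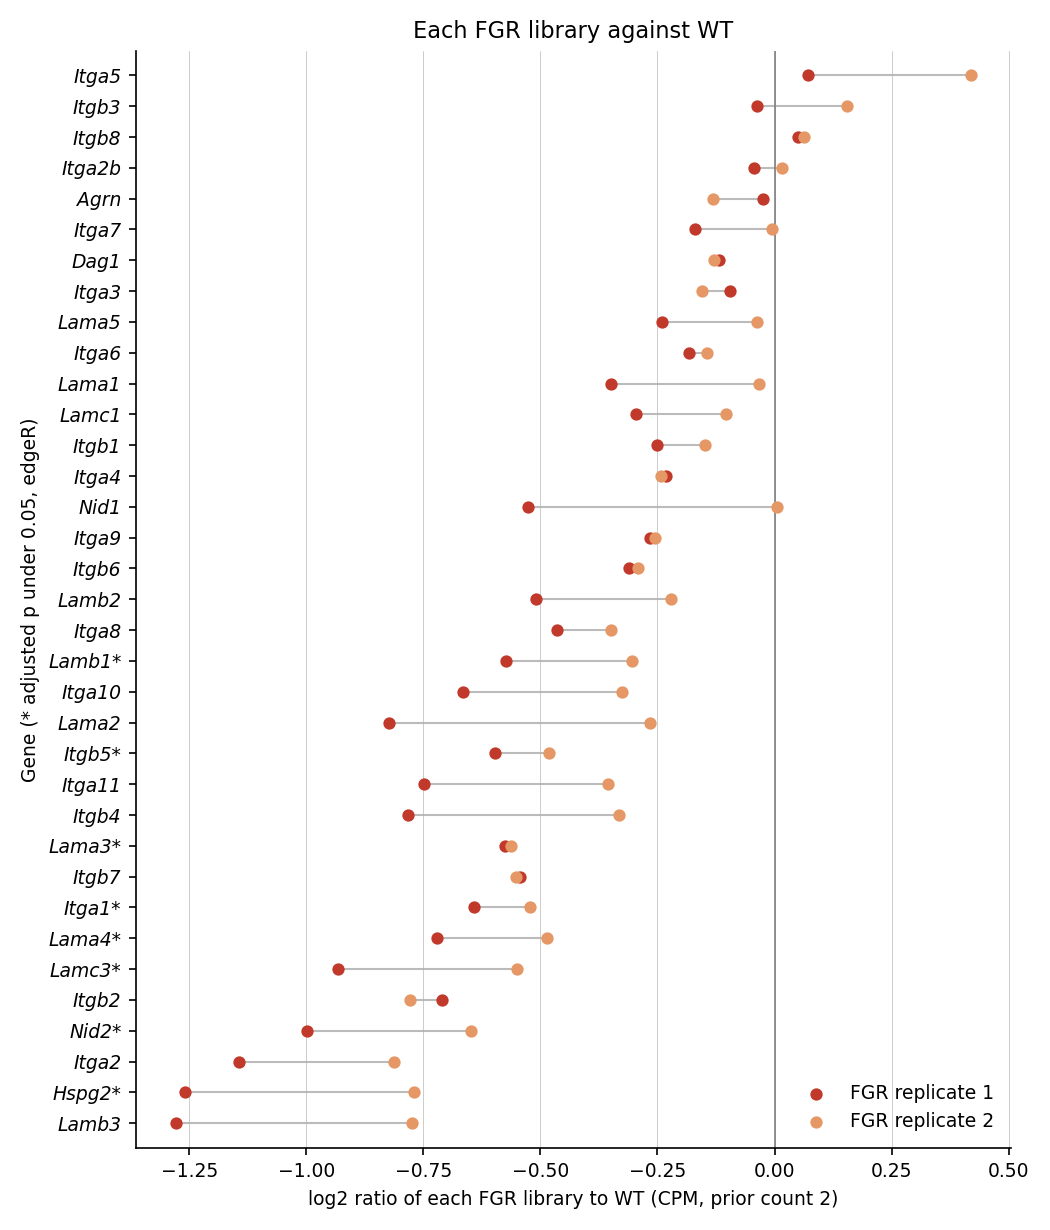
Log2 ratio of each FGR library to the WT library (x axis, CPM with a prior count of 2) for members (y axis, ordered by fold change), with called members marked by an asterisk. Both FGR libraries lie left of 0 for 30 members, and Hspg2 and Lamb3 lie furthest left in replicate 1.

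The sequence before the start of a gene is where many transcription factors bind. Windows are shown here for the called members that have an entry in RefSeq's promoter table (build GRCm38.p6). Lama3, Lama4, Lamc3 and Nid2 have no entry there. Each window runs 5′ to 3′ on the gene's strand from 250 bases before the start to 50 bases after it. Capitals mark GGGCGG, the GC box, or its reverse complement CCGCCC, searched on both strands. Hspg2 lies at chr4:137468553-137468852 (plus strand), Lamb1 at chr12:31265043-31265342 (plus strand), Itgb5 at chr16:33829415-33829714 (plus strand) and Itga1 at chr13:115101915-115102214 (minus strand).
Hspg2: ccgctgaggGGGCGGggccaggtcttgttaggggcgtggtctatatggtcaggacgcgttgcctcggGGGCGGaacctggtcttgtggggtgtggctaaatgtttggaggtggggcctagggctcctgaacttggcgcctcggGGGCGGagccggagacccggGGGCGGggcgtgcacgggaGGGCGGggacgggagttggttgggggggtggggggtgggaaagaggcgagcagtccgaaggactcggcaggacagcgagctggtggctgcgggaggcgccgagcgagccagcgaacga
Lamb1: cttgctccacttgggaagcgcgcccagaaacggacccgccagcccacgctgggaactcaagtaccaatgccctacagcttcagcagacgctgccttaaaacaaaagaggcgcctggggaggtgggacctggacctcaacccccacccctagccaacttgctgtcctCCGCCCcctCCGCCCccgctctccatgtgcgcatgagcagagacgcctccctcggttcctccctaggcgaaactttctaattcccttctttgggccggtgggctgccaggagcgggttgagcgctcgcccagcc
Itgb5: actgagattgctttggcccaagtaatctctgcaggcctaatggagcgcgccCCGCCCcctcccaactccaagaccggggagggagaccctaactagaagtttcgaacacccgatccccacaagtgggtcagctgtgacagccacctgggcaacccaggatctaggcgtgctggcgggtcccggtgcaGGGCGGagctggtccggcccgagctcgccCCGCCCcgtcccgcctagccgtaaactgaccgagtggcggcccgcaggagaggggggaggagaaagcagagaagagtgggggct
Itga1: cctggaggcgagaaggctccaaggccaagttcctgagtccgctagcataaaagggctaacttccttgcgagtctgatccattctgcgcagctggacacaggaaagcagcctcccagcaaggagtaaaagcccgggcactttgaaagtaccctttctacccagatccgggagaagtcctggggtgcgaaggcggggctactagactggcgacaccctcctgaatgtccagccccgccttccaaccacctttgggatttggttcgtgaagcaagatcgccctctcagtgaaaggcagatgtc
The window of Hspg2 held 5 matches at 70.3% G and C, that of Itgb5 held 3 at 65.7%, that of Lamb1 held 2 at 63.7% and that of Itga1 held 0 at 56.7%. The median over all windows was 52.7% G and C. RefSeq's table had 29 windows for 24 of the 36 members, and 16 of the 29 (55.2%) held the GC box, against 35.7% of all 32851 windows of the same length. TATAAA, the TATA box, stood in 0 of the 29 member windows and in 13.6% of all windows. A match of letters is a description of the window and says nothing of binding.

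Laminin chains were lower in FGR as a group. Of the 11 chains, 4 were called, and the median log2 fold change was -0.44. Summed over the chains, the level was 22.6 and 26.9 CPM per kilobase of gene length (CPM per kb) in FGR, against 30.8 in WT. Fewer cells of a type and less RNA per cell cannot be told apart in such bulk libraries. FGR replicate 1 was below replicate 2 in each of the 11 chains.

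Among the alpha chains, which carry the receptor-binding domains, Lama4 and Lama3 fell. Lama4 (ENSMUSG00000019846.11), the alpha chain of blood vessel walls, had 19.5 and 22.9 CPM in FGR, against 32.1 CPM in WT. Both FGR values were well below WT, and the log2 fold change was -0.60 ± 0.12 (SE), 1.52-fold lower (edgeR adjusted p = 0.00971). Lama3 (ENSMUSG00000024421.16), best known as the alpha chain of skin anchoring laminin, had 8.62 and 8.70 CPM in FGR and 12.9 CPM in WT. The FGR libraries nearly coincided, and the log2 fold change was -0.57 ± 0.14 (edgeR adjusted p = 0.0307).

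The other alpha chains were also lower in both FGR libraries, without a call. Lama2, the chain lost in merosin-deficient muscular dystrophy, had 9.36 and 13.8 CPM in FGR and 16.6 CPM in WT, at a log2 fold change of -0.52 ± 0.18 (edgeR adjusted p = 0.127). Its FGR libraries lay further apart than the higher of them lay from WT. Lama1, the alpha chain of embryonic and pial basement membranes, had 19.0 and 23.6 CPM in FGR, against 24.2 CPM in WT, so that replicate 2 came close to WT (log2 fold change -0.19 ± 0.13, edgeR adjusted p = 0.512). Lama5, a chain of many mature basement membranes, had 7.84 and 9.03 CPM in FGR and 9.27 CPM in WT (log2 fold change -0.14 ± 0.15, edgeR adjusted p = 0.693).

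The 3 beta chains were below WT in both FGR libraries. Lamb1 (ENSMUSG00000002900.15), the widespread beta chain, had 22.2 and 26.7 CPM in FGR and 33.0 CPM in WT, with a log2 fold change of -0.44 ± 0.12 (edgeR adjusted p = 0.0491). It is the call nearest to the threshold. Lamb2, the chain of synaptic and vascular basement membranes and the most abundant beta chain per length, had 33.6 and 41.05 CPM in FGR, against 47.8 CPM in WT. Both were below WT, and the log2 fold change of -0.36 ± 0.10 missed the threshold in edgeR (adjusted p = 0.0610). Lamb2 passed in edgeR with library totals alone (0.0246), with DESeq2's size factors (0.0427) and with no filter on low counts (0.00103). It did not pass in edgeR with TMM without Rn7s1 and Rn7s2 (0.0538), the robust fit (0.135) or the stricter filter (0.154). Nor did it pass in limma-voom (adjusted p = 0.0559) or DESeq2 (0.275). Lamb3 showed the most negative fold change of all members from the fewest reads of any laminin, 36 and 41 counts in FGR and 84 in WT. Its log2 fold change was -1.05 ± 0.33, and the adjusted p of 0.0945 in edgeR gave no call.

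Among the gamma chains, Lamc3 fell and Lamc1 gave no call. Lamc3 (ENSMUSG00000026840.14), a gamma chain known from retinal and pial basement membranes, had 5.55 and 7.24 CPM in FGR, against 10.6 CPM in WT. Its log2 fold change was -0.74 ± 0.17, 1.67-fold lower (edgeR adjusted p = 0.0229). Lamc1, the common gamma chain and the most abundant laminin chain per length, had 53.2 and 60.8 CPM in FGR and 65.3 CPM in WT, and gave no call (log2 fold change -0.20 ± 0.08, edgeR adjusted p = 0.185).

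**Figure D2:**
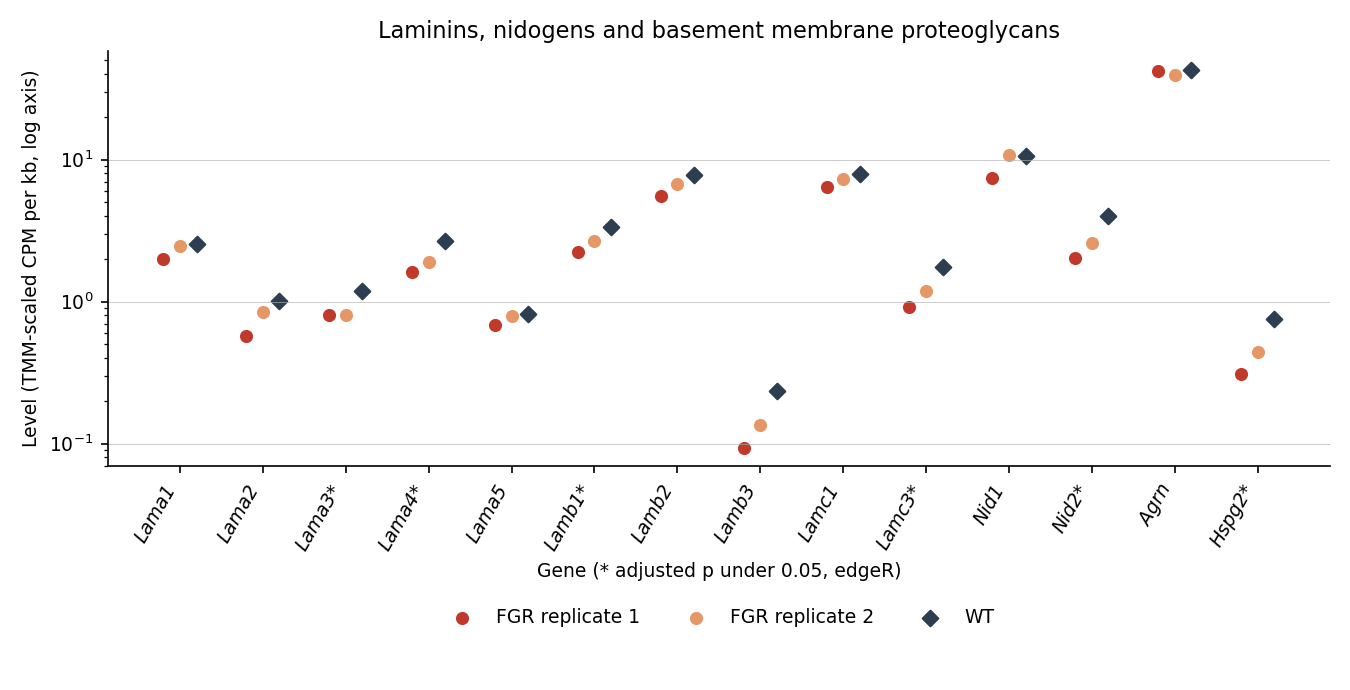
Level of laminin chains, nidogens and proteoglycans in each library (CPM per kb, log axis), FGR libraries left of WT. Hspg2, Nid2, Lama4 and Lamc3 lie below WT in both FGR libraries, while Agrn, at 42.4 and 39.3 in FGR and 43.1 in WT, is the most abundant.

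Set per length, the share of Lamb2 among beta chains was close in all libraries, while those of Lama1 and Lama4 among alpha chains differed between the groups. Lamb2 held 70.3% and 70.4% in FGR and 68.8% in WT, and Lamb3 held 1.20% and 1.42% in FGR and 2.06% in WT. Among alpha chains, Lama1 held 35.1% and 36.3% in FGR and 30.85% in WT, and Lama4 held 28.5% and 27.8% in FGR and 32.35% in WT. Lama1 was thus the leading alpha chain in FGR libraries and Lama4 in the WT library. The share of Lama2 did not separate the groups, at 10.1% and 12.37% in FGR and 12.35% in WT. These shares have no test, with 1 WT library and chains that share their reads' total.

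**Figure D3:**
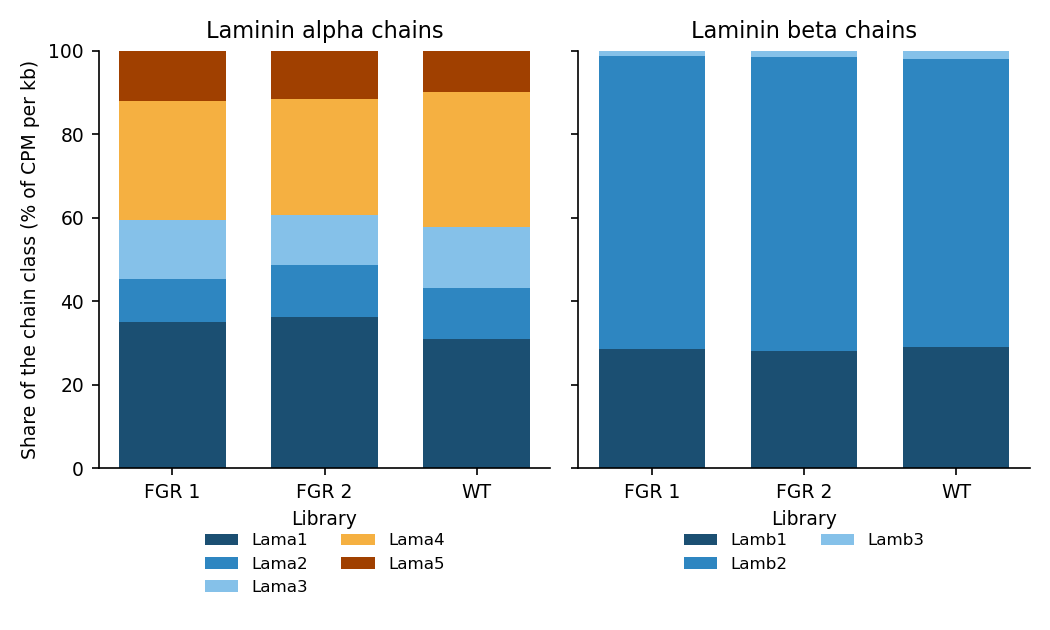
Share of each chain in the summed level of its class (percent of CPM per kb) for laminin alpha and beta chains, FGR libraries left of WT. Lama1 is at 35.1% and 36.3% in FGR and 30.85% in WT, while Lamb2 is at 70.3% and 70.4% in FGR and 68.8% in WT.

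Nidogens and perlecan, the linkers between laminin and collagen IV, included the called members with the largest folds. Hspg2 (ENSMUSG00000028763.17), which encodes the core protein of perlecan, had 4.46 and 6.28 CPM in FGR and 10.7 CPM in WT, from 259 and 287 counts in FGR and 578 in WT. It was 2.01-fold lower, with a log2 fold change of -1.01 ± 0.18 (edgeR adjusted p = 0.00636). Both FGR libraries were far below WT, replicate 1 further than replicate 2 (log2 ratios -1.26 and -0.77). Nid2 (ENSMUSG00000021806.3) had 9.86 and 12.6 CPM in FGR, against 19.7 CPM in WT, and was 1.76-fold lower (log2 fold change -0.82 ± 0.15, edgeR adjusted p = 0.00708).

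The paralog and the other proteoglycan did not move in the same way. Nid1, the more abundant nidogen, had 44.9 and 64.9 CPM in FGR and 64.7 CPM in WT. FGR replicate 2 was level with WT and replicate 1 alone was low, so the groups overlapped (log2 fold change -0.24 ± 0.14, edgeR adjusted p = 0.388). Per length the ratio of Nid1 to Nid2 was 3.68 and 4.17 in FGR, against 2.65 in WT. Agrn, a proteoglycan that binds dystroglycan and clusters acetylcholine receptors at the neuromuscular junction, was the most abundant member per length. It had 393.4 and 365.2 CPM in FGR and 400.2 CPM in WT, and its log2 fold change of -0.08 ± 0.09 gave no call (edgeR adjusted p = 0.726). It was the only one of the 15 matrix members for which FGR replicate 1 was above replicate 2. The ratio of Agrn to Hspg2 per length was 135.8 and 89.7 in FGR, against 57.4 in WT.

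Among the receptors, the widely expressed Dag1 and Itgb1 lay below WT in both FGR libraries, without a call. Dag1, the receptor that holds laminin and agrin through its sugar chains, had 98.9 and 98.2 CPM in FGR and 107.4 CPM in WT, at a log2 fold change of -0.12 ± 0.07 (edgeR adjusted p = 0.341). Itgb1, the beta subunit shared by the laminin- and collagen-binding integrins, had 100.2 and 107.7 CPM in FGR, against 119.3 CPM in WT. Both values were below WT, with a log2 fold change of -0.20 ± 0.07 and no call (edgeR adjusted p = 0.136). Over all 21 receptor genes, 2 were called lower and the median log2 fold change was -0.26, beside 6 called and a median of -0.44 for the 15 matrix genes. The difference between matrix and receptor genes was not tested.

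Laminin-binding integrin alpha subunits gave no call. Itga3, a receptor for laminins at the end feet of radial glia, was the most abundant alpha subunit per length and had 36.5 and 34.97 CPM in FGR and 38.9 CPM in WT (log2 fold change -0.12 ± 0.08, edgeR adjusted p = 0.481). Itga6, found on endothelium and neural progenitors, had 42.8 and 43.95 CPM in FGR, against 48.6 CPM in WT (log2 fold change -0.16 ± 0.07, edgeR adjusted p = 0.245). Itga7, a laminin receptor of muscle, had 18.1 and 20.3 CPM in FGR and 20.4 CPM in WT (log2 fold change -0.09 ± 0.12, edgeR adjusted p = 0.775). All were lower than WT in both FGR libraries, and the fitted fold was at most 1.12.

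Collagen-binding alpha subunits were further from WT. Itga1 (ENSMUSG00000042284.9), a collagen IV receptor of vessel walls, fell to 6.72 and 7.30 CPM in FGR, against 10.5 CPM in WT (log2 fold change -0.59 ± 0.15, edgeR adjusted p = 0.0366). Its FGR values were close to each other and apart from WT. Itga2, a collagen receptor known from platelets and epithelia, had 50 and 50 counts in FGR and 105 in WT, with a log2 fold change of -1.004 ± 0.29 and an edgeR adjusted p of 0.0694. Itga10 and Itga11, collagen receptors of cartilage and fibroblasts, had log2 fold changes of -0.50 ± 0.20 and -0.56 ± 0.27 without a call. The median of the 4 was -0.57, and all 4 were lower than WT in both FGR libraries.

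The remaining numbered alpha subunits showed no call in either direction. Itga8, a partner of Itgb1 for nephronectin, had 5.46 and 5.93 CPM in FGR and 7.56 CPM in WT (log2 fold change -0.41 ± 0.15, edgeR adjusted p = 0.164). Itga5, the fibronectin receptor, stood above WT in both FGR libraries, at 2.79 and 3.56 CPM against 2.66 CPM (log2 fold change 0.25 ± 0.22, edgeR adjusted p = 0.603). Itga2b, the platelet fibrinogen receptor, had 4.72 and 4.92 CPM in FGR around 4.87 CPM in WT, so that the groups overlapped. Itga4 and Itga9, receptors for VCAM and other non-laminin ligands, were lower in both FGR libraries by log2 fold changes of -0.24 ± 0.14 and -0.26 ± 0.15.

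Beta subunits fell into those below WT and those level with it. Itgb5 (ENSMUSG00000022817.14), the partner of the vitronectin receptor subunit Itgav, fell to 21.8 and 23.6 CPM in FGR, against 33.0 CPM in WT. The log2 fold change was -0.54 ± 0.10, 1.45-fold lower (edgeR adjusted p = 0.00946), and the FGR libraries were close together. Itgb8, another partner of Itgav, had 78.5 and 79.1 CPM in FGR and 75.8 CPM in WT, at a log2 fold change of 0.06 ± 0.06 (edgeR adjusted p = 0.701). Of the beta subunits' summed level per length, Itgb5 held 16.5% and 16.7% in FGR and 20.6% in WT, while Itgb8 held 17.998% and 17.0% in FGR and 14.4% in WT. Itgb5 was thus behind Itgb8 in both FGR libraries and ahead of it in WT.

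Other beta subunits were rare. Itgb3, the beta subunit of platelet and vascular integrins, had 3.67 and 4.199 CPM in FGR, which lay on either side of 3.77 CPM in WT. Itgb4, the hemidesmosome subunit that pairs with Itga6, had 1.43 and 1.97 CPM in FGR and 2.49 CPM in WT (log2 fold change -0.56 ± 0.25, edgeR adjusted p = 0.258). The leukocyte subunits Itgb2 (36 and 27 counts in FGR, 56 in WT) and Itgb7 (0.638 and 0.634 CPM in FGR, 0.947 CPM in WT) were lower without a call. Itgb6, an epithelial subunit, was the least abundant member, with 10 and 8 counts in FGR and 12 in WT, too few to show a difference of this size.

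**Figure D4:**
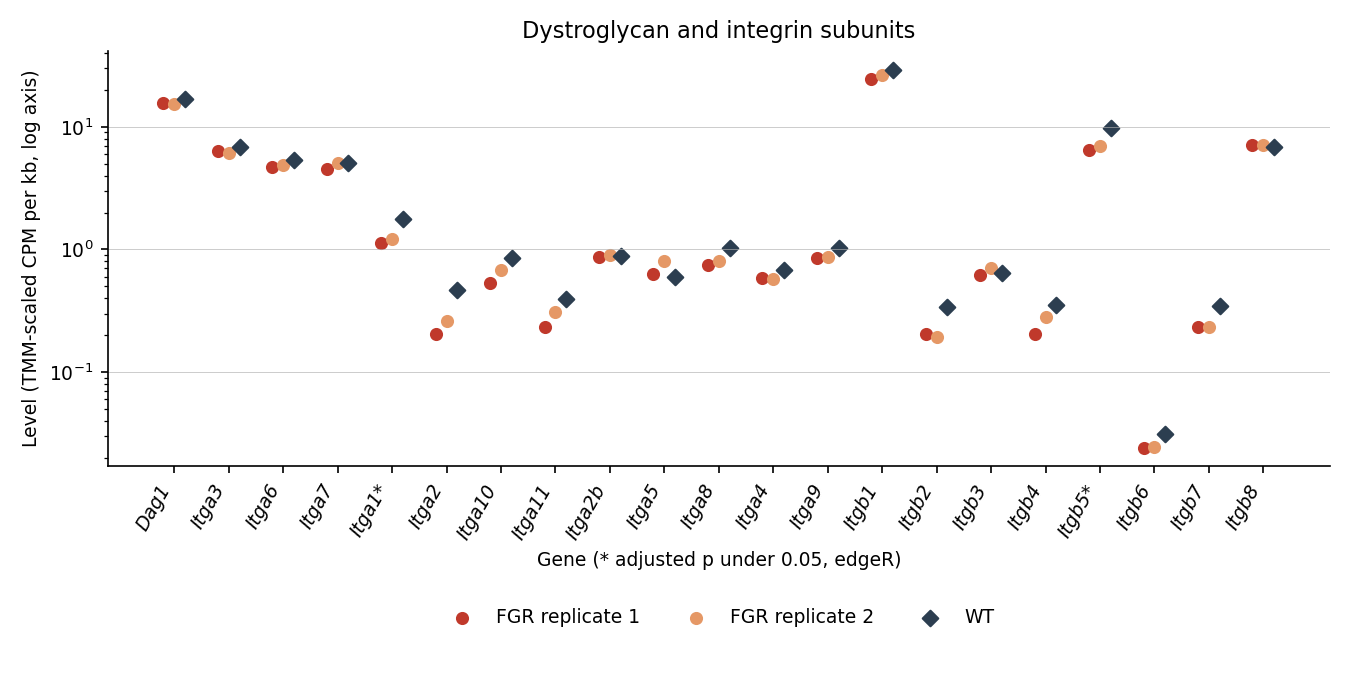
Level of dystroglycan and of each integrin subunit in each library (CPM per kb, log axis), FGR libraries left of WT. Itgb1 (24.6 and 26.4 in FGR, 29.2 in WT) and Dag1 (15.6 and 15.4 in FGR, 16.9 in WT) are the most abundant, and Itgb5 and Itga1 lie below WT in both FGR libraries.

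Ordered by level per length over the 3 libraries, Agrn came first, then Itgb1, Dag1, Nid1, Itgb5, Lamc1, Itgb8 and Lamb2, with Lamb3 and Itgb6 last. The neighbours Nid1 (7.43 and 10.7 CPM per kb in FGR, 10.7 in WT), Itgb5 (6.48 and 7.03 in FGR, 9.82 in WT), Lamc1 (6.44 and 7.35 in FGR, 7.90 in WT) and Itgb8 (7.10 and 7.15 in FGR, 6.85 in WT) overlapped in range, so their order is not settled. The called members were spread along this order, Itgb5 being the only one among the first 8. The called member with the lowest level was Hspg2, at 0.312 and 0.439 CPM per kb in FGR and 0.750 in WT.

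Genes that work beside the members were read from 7 lists. Collagen IV and other basement membrane components had 5 of 21 genes called lower and 0 higher, at a median log2 fold change of -0.32. Col15a1, a collagen of vascular basement membranes, had 10.8 and 10.6 CPM in FGR and 16.9 CPM in WT (log2 fold change -0.66, edgeR adjusted p = 0.0111), and Sparc, a collagen-binding matrix protein, had 162.8 and 186.2 CPM in FGR and 227.1 CPM in WT (-0.38, edgeR adjusted p = 0.0235). Col4a1, a main chain of collagen IV, was lower as well, with 113.3 and 121.2 CPM in FGR and 147.3 CPM in WT, as were Col4a2 and Col4a5. DESeq2 called 2 genes of this list, both lower. The calls among the matrix members and in this list thus had 1 direction. At an unadjusted p under 0.05 edgeR had 10 genes of the list lower and 2 higher, Ntn1 (log2 fold change 0.27) and Npnt (0.19). Of the 21 genes, 15 lay below WT in both FGR libraries and 5 above it in both.

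Among other matrix ligands of integrins, 7 of 21 genes were called lower and 0 higher, with a median of -0.40. They were Fn1, Vtn, Spp1, Postn, Mfge8, Fbln5 and Vcam1. Vtn, the vitronectin gene and a ligand of Itgav with Itgb5, had 33.0 and 37.8 CPM in FGR, against 73.7 CPM in WT (log2 fold change -1.06, edgeR adjusted p = 5.14e-06). Tnc, the most abundant of the list, had a log2 fold change of -0.02 and no call. Itgav itself had 39.2 and 39.3 CPM in FGR and 44.3 CPM in WT (edgeR adjusted p = 0.236), while the leukocyte subunit Itgam was called lower at 2.31 and 2.06 CPM in FGR, against 4.46 CPM in WT. It was the 1 call among 4 tested letter-named alpha subunits.

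The remaining partners of dystroglycan and integrins are read beside the 2.59% of all genes called lower. Of 13 tested dystrophin-associated genes, 2 were lower, Dtna and the water channel gene Aqp4, which is anchored at astrocyte end feet and had 129.2 and 136.0 CPM in FGR and 197.2 CPM in WT (log2 fold change -0.57). Of 12 dystroglycan glycosylation genes, 2 were lower in edgeR and 0 were called in DESeq2, which had 2 lower at an unadjusted p under 0.05. Both lists lay above that share. Of 24 intracellular linkers and kinases, 1 was lower, Tln2, a talin, at 151.6 and 140.4 CPM in FGR and 184.4 CPM in WT, while Flna, the most abundant, had a log2 fold change of -0.01. This list was near that share. Of 12 other laminin or agrin receptors, 0 were called by edgeR or DESeq2 and 1 was called lower by limma-voom, with 4 lower and 0 higher at an unadjusted p under 0.05 in edgeR. The most abundant, Sdc3, had an edgeR adjusted p of 0.565. The list medians were -0.05, -0.08, -0.15 and -0.15 in this order.

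**Figure D5:**
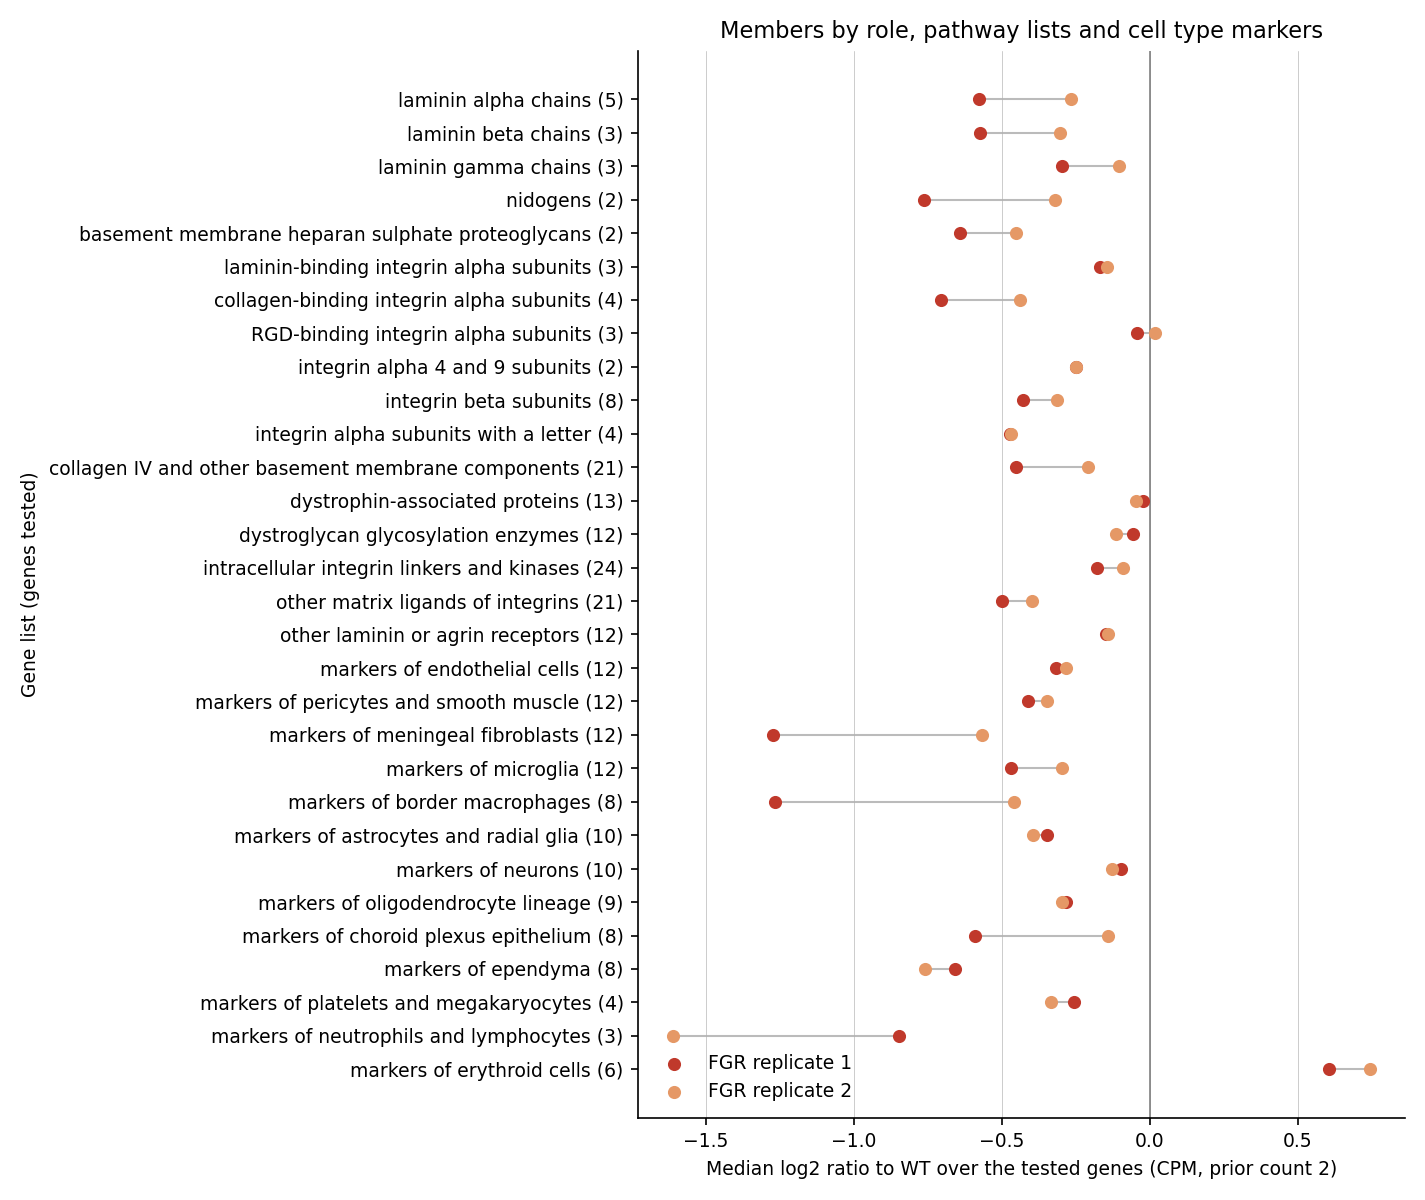
Median log2 ratio of each FGR library to WT (x axis, CPM with a prior count of 2) over the tested genes of each member role, pathway list and marker list (y axis, number of genes in brackets). Meningeal fibroblast markers lie at -1.27 in FGR replicate 1 and -0.57 in replicate 2, laminin alpha chains at -0.58 and -0.27, and neuron markers close to 0.

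Many markers of the cells that make basement membranes were lower in the same libraries. Of 12 meningeal fibroblast markers, all were below WT in both FGR libraries and 9 were called lower, with a summed level of 390.1 and 547.0 CPM in FGR, against 810.6 CPM in WT. Their leading gene Col3a1 (log2 fold change -1.01) was called in edgeR, but not in its robust fit (adjusted p = 0.559) or in DESeq2 (0.384). FGR replicate 1 was below replicate 2 in this sum, as it was for the laminin chains. The sums of the other marker lists had the same order, except those of neuron, oligodendrocyte lineage, ependymal and platelet markers. Of 12 pericyte and smooth muscle markers, 4 were lower and 11 lay below WT in both FGR libraries (summed 212.3 and 223.9 CPM in FGR, 297.9 CPM in WT), led by Vtn and Rgs5. Of 12 endothelial markers, 4 were lower and 10 lay below WT in both (summed 202.1 and 205.5 CPM in FGR, 242.5 CPM in WT), with Kdr and Cldn5 among the calls. At an unadjusted p under 0.05 edgeR had 6 endothelial markers lower and 2 higher, Ly6c1 (log2 fold change 0.50) and Slco1c1 (0.18), which were chosen here after their values were seen. DESeq2 called fewer of these markers, 2 meningeal, 2 mural and 0 endothelial, with 4 endothelial markers lower and 0 higher at an unadjusted p under 0.05. No marker of these 3 lists was at 0 in any library. The part of these cell types in the members' levels was not tested.

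Marker lists of other cells differed in how many genes were called. Astrocyte and radial glia markers, Gfap and Fabp7 among them, had 5 of 10 genes lower (summed 1275 and 1388 CPM in FGR, 1640.04 CPM in WT). Neuron markers, with Map2 the most abundant, had 0 of 10 called by edgeR or DESeq2 and 1 called lower by limma-voom. At an unadjusted p under 0.05 edgeR had 4 lower and 1 higher, 7 lay below WT in both FGR libraries, and the median was -0.12. Calls in the lower direction were made for 3 of 12 microglia markers (Fcrls and Csf1r among them), 3 of 8 border macrophage markers (with Mrc1), 3 of 9 oligodendrocyte lineage markers (with Gpr17) and 3 of 8 ependymal markers (with Dnah5). DESeq2 called fewer, 1 microglia, 0 border macrophage, 3 oligodendrocyte lineage and 1 ependymal marker, and had 2 border macrophage markers lower at an unadjusted p under 0.05. Mrc1 was also not called in the robust edgeR fit (adjusted p = 0.465), nor was Gfap (0.130), which DESeq2 called (0.0377). Of 8 choroid plexus markers, 5 lay below WT in both FGR libraries without a call and 2 above it in both, at a list median of -0.39. Otx2 was called higher in edgeR but not in DESeq2 (adjusted p = 0.0945). At an unadjusted p under 0.05 edgeR had 0 of these markers lower and 2 higher. Their summed level was 54.3 and 56.6 CPM in FGR and 44.8 CPM in WT. Most of it was Otx2, with 46.4 and 43.4 CPM in FGR and 33.9 CPM in WT. Of 6 erythroid genes, 5 were higher, led by Hba-a2. Itga2b, Itgb2 and Itgb7 are known from blood cells. Of 8 platelet genes 4 were tested, and Pf4, which is also on the border macrophage list, was called lower in edgeR. Pf4 was not called in DESeq2 (adjusted p = 0.385) or in the robust edgeR fit (0.0569). Gp1bb, the most abundant platelet gene tested, had 51.0 and 48.8 CPM in FGR and 49.0 CPM in WT. Of 10 neutrophil and lymphocyte genes 3 were tested, with 0 called by edgeR, DESeq2 or limma-voom and 1 lower at an unadjusted p under 0.05 in edgeR, and Ly6g, Elane and Cd3g were at 0 in all libraries. Ptprc, the general leukocyte gene, had 1.69 and 1.97 CPM in FGR and 2.79 CPM in WT. The part of these cells in the members' levels was not tested either.

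Some members share exon sequence with other genes, and use of the strand in counting is not given in the sources used here. In GENCODE M21, 11 of the 36 members had such an overlap. For Nid2 it covers 8.45% of the exonic bases, with Rtraf on the opposite strand, which had 2812 and 2245 counts in FGR and 2632 in WT. Nid2 had 572 and 575 counts in FGR and 1062 in WT. For Lamc3 it covers 6.27%, with the antisense gene Gm13441, which had 29 and 43 counts in FGR and 65 in WT. Lamc3 had 322 and 331 counts in FGR and 572 in WT. For Itga1 it covers 3.68%, with Gm49395 on the same strand, which has no count here. For Lama3 it covers 1.83%, with the antisense gene Gm29200 (6 and 3 counts in FGR, 8 in WT). The part of shared reads in the levels of these called members was not tested. The largest overlap was that of Itga10, 33.5% with Gm42957 on the same strand (630 and 514 counts in FGR, 545 in WT), so the level of Itga10 is uncertain. Hspg2, Lama4, Lamb1 and Itgb5 had no overlap.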

How the data were processed

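RNA-seq counts of 3 midbrain libraries, 2 FGR and 1 WT, were analysed. Per the labels' protocols, RNA was extracted with Trizol and libraries were made with an Illumina TruSeq RNA kit. HISAT2 is named in the submitters' processing notes. Not given in the sources used here are the aligner's version, the build and the program that counted reads.

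The authors deposited for each library a raw read count per gene, a gene length and an RPKM value. The deposited RPKM equalled the count divided by length and library total, in the usual scale, to within 0.000498% and was not used further. The counts of FGR and WT were compared with edgeR 4.0.16 (R 4.3.3), which scaled by TMM, kept 25561 genes by filterByExpr at a minimum count of 10, and ran a two-sided quasi-likelihood F test. P-values were adjusted by Benjamini and Hochberg's method over these genes, and a call is an adjusted p under 0.05. All spread in the test is that between the FGR libraries, and WT is taken to vary as much. This leaves 1 residual degree of freedom per gene, to which edgeR adds prior degrees of freedom by shrinking each gene's spread towards a trend over all genes. Nothing in the labels says whether separate animals were used for them, and p-values reflect the spread of these samples alone. SE is the absolute log2 fold change over the root of the F statistic. CPM is the count scaled to the TMM library size, and CPM per kb divides it by the deposited length. Log2 ratios per library used a prior count of 2. The same test was also run on simulated counts with known changes, drawn from the means and spread of this fit. That outcome is not reported here.

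Alternatives were other scalings, no filter or a mean of at least 1 CPM, DESeq2 1.42.0, limma 3.58.1 (voom), a robust fit, a prior count of 0.5 and each FGR library left out. Results of a few genes, members among them, are not reported here, though counts and medians include them. Members called and the most abundant of each role are given in full, and from each pathway or marker list the call with the smallest p in each direction and the most abundant gene. The members and lists were chosen with earlier results of these data known.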

Additional observations from a re-analysis of the deposited data

How the results depend on the processing

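The median log2 fold change of the members stayed negative in every alternative run, between -0.40 with library totals and -0.27 with a mean of at least 1 CPM, and was -0.27 to -0.49 with 1 FGR library left out. The number of members called, all lower, was 8, against 14 with no filter on low counts, 0 of 33 with a mean of at least 1 CPM and 4 in DESeq2. Pathway genes called were 18, against 30, 6 and 9 in the same 3 settings. Over all genes, 1087 of 25561 tested were called, against 2057 of 35837, 301 of 18670 and 357 of 25561 fitted, not all with an adjusted p in DESeq2. Of these 663 were lower, against 1362, 201 and 233, and 1033 with library totals, and 424 were higher, against 695, 100 and 124. The share of calls that were lower was 61.0%, against 75.6% with library totals. Gp1bb, which had no call, was at -0.013 with library totals in place of 0.03. The members' median under the stricter filter was over 33 members in place of 36. The called members' own log2 fold changes were slightly more negative there than in the main fit. With library totals the median over all genes was -0.03, against 0.01. The cause of the changes in calls and in Gp1bb was not tested. Leaving out an FGR library leaves 1 library against 1, which gives values with no test. No paired analysis was possible because the groups share only 1 replicate number. Members with few counts, such as Itgb6, Lamb3 and Itgb2, are limited by depth, and the spread behind every edgeR p-value was measured in the FGR pair alone.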
